A study of Homo sapiens with 12 samples.

Results

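FoxK1 binding was examined across the HOXA, HOXB, HOXC and HOXD gene clusters in HepG2, an established line of human liver cancer cells. A FoxK1 peak belonged to a cluster when its summit, the base with the highest signal, lay inside an interval fixed on build hg19. The intervals were chromosome 7, 27130000 to 27290000 for HOXA, chromosome 17, 46600000 to 46810000 for HOXB, chromosome 12, 54330000 to 54450000 for HOXC, and chromosome 2, 176940000 to 177060000 for HOXD. They held 81 of the 223205 peaks deposited for the 6 libraries. The 38 HOX genes considered were 10 each of HOXA and HOXB and 9 each of HOXC and HOXD.

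All cells were the parental line with no genetic change named in the labels, and all were kept for 16 h in medium with albumin in place of serum. One group then received 100 nM insulin for 20 min, and the other was left untreated. Chromatin was crosslinked and precipitated with an antibody to FoxK1, with 3 libraries per group. Inputs of 6 further samples were not used here. Whether the replicates are separate cultures is not stated, and every p-value therefore refers to the spread among these libraries, which may be technical.

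HOX genes encode homeodomain transcription factors that give cells their position along the head-to-tail axis of the embryo. In each cluster the genes stand in a row in the order of their paralog numbers, and low-numbered genes act toward the head and high-numbered genes toward the tail. Polycomb complexes keep clusters silent over long stretches, and CTCF sites are known to divide active from silent parts. FoxK1 is a forkhead factor that recruits the SIN3 corepressor and moves between cytoplasm and nucleus with insulin and mTOR signalling. In the order of genes along each chromosome, HOXA runs from HOXA2 to HOXA13 and HOXB from HOXB1 to HOXB13, while HOXC runs from HOXC13 to HOXC4 and HOXD from HOXD13 to HOXD1. This order is background. The RefSeq promoter sequences used below hold 1 HOXB gene and 2 HOXC genes and cannot give it for these clusters. The order serves for direction only, and no single peak was assigned to a gene.

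Sequence under the peaks was not used here, since no hg19 genome was at hand. RefSeq promoter sequences on GRCh38.p14 matched 20 of the 38 genes, through 27 start sites. Genes without an entry were HOXA5, HOXB2, HOXB3, HOXB4, HOXB5, HOXB6, HOXB7, HOXB8, HOXB9, HOXB13, HOXC6, HOXC8, HOXC9, HOXC10, HOXC11, HOXC12, HOXC13 and HOXD9. Each window covers 250 bases before and 50 after the start, and both strands were searched. The forkhead letters GTAAACA stood in 2 of the 27 HOX windows, against 3.42% of 35116 windows of all genes. Those 2 windows are one sequence, because HOXC4 and HOXC5 share the listed start. The CTCF core motif stood in 1 HOX window, that of HOXA10, against 2.41% of all windows. The ETS letters CCGGAAG stood in 0 of the 27, against 10.3% of all. None of the 16 HOXA windows held GTAAACA. These matches are descriptions of the windows and not binding sites. The windows with a match are printed because they alone among the HOX windows held forkhead or CTCF letters. Each is given without its last 50 bases, 5′ to 3′ along the gene's strand and with the match in capitals. They are chr12:54016638-54016887 on the plus strand and chr7:27179862-27180111 on the minus strand, both in GRCh38.p14 and not to be set against the hg19 peaks.
HOXC4 and HOXC5: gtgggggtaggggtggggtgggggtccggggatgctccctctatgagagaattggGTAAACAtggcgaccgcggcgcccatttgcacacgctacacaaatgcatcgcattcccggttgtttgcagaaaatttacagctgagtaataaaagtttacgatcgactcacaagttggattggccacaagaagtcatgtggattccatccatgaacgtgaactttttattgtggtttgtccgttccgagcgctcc
HOXA10: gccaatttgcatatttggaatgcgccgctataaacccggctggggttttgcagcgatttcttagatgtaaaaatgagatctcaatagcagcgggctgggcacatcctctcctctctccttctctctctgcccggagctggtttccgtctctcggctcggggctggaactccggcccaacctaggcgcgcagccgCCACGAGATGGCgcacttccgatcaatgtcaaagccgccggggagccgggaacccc

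FoxK1 peaks were concentrated in HOXA. It held 51 of the 81 peaks, while HOXB held 6, HOXC 11 and HOXD 13. The insulin libraries had 10, 10 and 7 peaks in HOXA and the untreated libraries had 11, 7 and 6. The groups overlapped, and in both of them replicate 3 was the lowest. HOXB had 2, 1 and 0 peaks after insulin and 2, 0 and 1 without it. HOXC had 3, 3 and 1 after insulin and 2, 1 and 1 without it. HOXD had 2, 3 and 1 after insulin and 2, 2 and 3 without it. No cluster separated the groups.

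Set against length, HOXA had 5.31 ± 1.30 peaks per 100 kb (SD, n = 6 libraries), HOXD 1.81 ± 0.627, HOXC 1.53 ± 0.819 and HOXB 0.476 ± 0.426. HOXA was higher than each other cluster in 6 of 6 libraries, by 4.84 over HOXB, 3.78 over HOXC and 3.51 over HOXD (two-sided exact sign-flip permutation test over the libraries, adjusted p = 0.0375 for each, Benjamini-Hochberg over 6 pairs). HOXB was lower than HOXC and HOXD in 6 of 6 libraries, with differences of -1.05 and -1.33 and the same adjusted p. HOXC and HOXD, which neighbour each other in this order, differed by less than their spread (exact sign-flip adjusted p = 0.75). With a minimum −log10 q of 5 none of these calls held after adjustment. HOXA was still higher in 6 of 6 libraries, by 3.85, 3.06 and 2.78 (exact sign-flip adjusted p = 0.0625 for each). Its exact sign-flip p before adjustment stayed at 0.031 for each pair, the smallest that 6 libraries allow. The adjusted value rose only because HOXB against HOXC and HOXD no longer reached that p. The rise therefore reflects those pairs and not HOXA. These HOXB differences had exact sign-flip adjusted p of 0.3 and 0.0938. With intervals shortened by 10 kb at both ends the HOXB and HOXD difference was -0.395 (exact sign-flip adjusted p = 0.375), and with each list cut to its 26082 strongest peaks the HOXB and HOXC difference was -0.119 (adjusted p = 0.5).

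**Figure D1:**
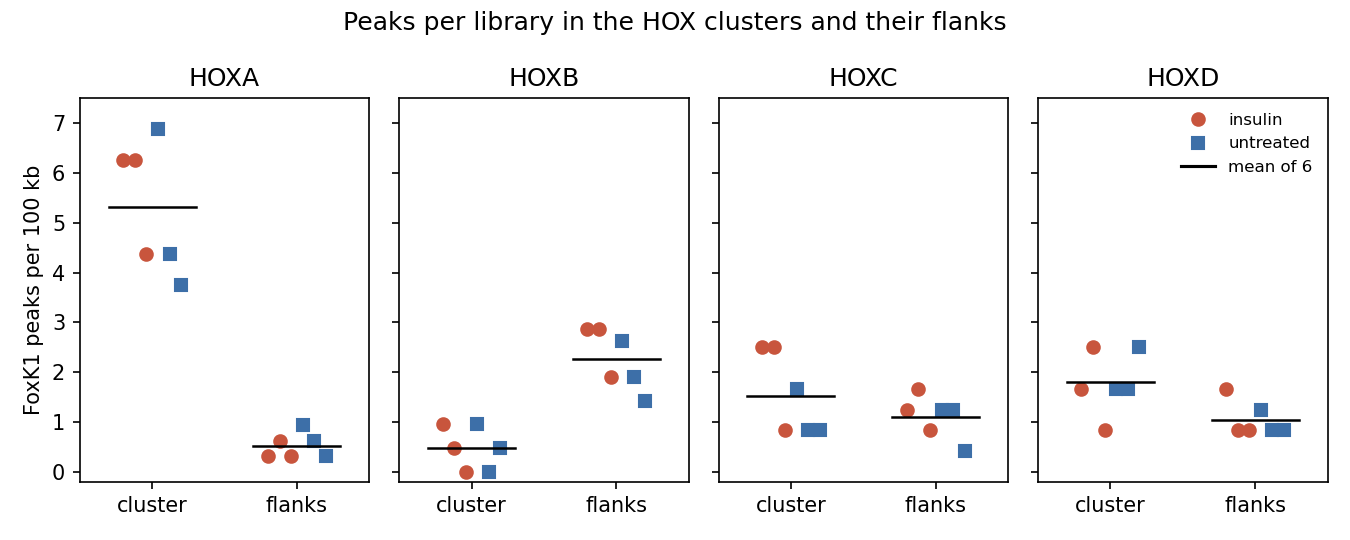
FoxK1 peaks per 100 kb (vertical axis) in each HOX cluster and in its flanks, 1 point per library (circles insulin, squares untreated), with the mean of the 6 libraries as a line. HOXA points lie between 3.75 and 6.88 in the cluster and at most 0.938 in the flanks, while HOXB points lie at most 0.952 in the cluster and between 1.43 and 2.86 in the flanks.

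Each cluster was compared with flanks of its own length on both sides. HOXA stood above its flanks in 6 of 6 libraries, with 0.521 ± 0.255 peaks per 100 kb in the flanks (SD, n = 6) and a difference of 4.79 ± 1.16. HOXB stood below its flanks in 6 of 6 libraries, with 2.26 ± 0.598 in the flanks and a difference of -1.79 ± 0.470. Each of these had an exact sign-flip p of 0.031, the smallest that 6 libraries allow. Adjusted over the 4 clusters both became 0.0625 and missed the threshold of 0.05. With flanks 2 times as long the adjusted p was 0.0417 for HOXA and for HOXB, with differences of 4.82 and -2.62. Their exact sign-flip p before adjustment stayed at 0.031. The adjusted value fell only because HOXD reached the same p, so it adds nothing for HOXA and HOXB. HOXC and HOXD differed from their flanks by 0.417 ± 0.589 and 0.764 ± 0.765 (exact sign-flip adjusted p = 0.25 and 0.167, n = 6). With flanks 2 times as long HOXD passed the threshold, at 0.833 (exact sign-flip adjusted p = 0.0417), and HOXC turned to -0.417. HOXC also turned to -0.694 with lists of equal length and to -0.357 with intervals lengthened by 10 kb, and HOXD turned to -0.208 with intervals shortened by 10 kb.

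The HOXB contrast came from one side. The flank after the interval held 14 regions, of which 5 were called in all 6 libraries, and the flank before it held a single region, called in 1 library. The strongest flank region was chromosome 17, 46872760 to 46873798, with the authors' deposited fold over background between 15.6 and 40.9 and a percentile of −log10 q of at least 98.5 in each list. HOXC and HOXD also had flank regions in all 6 libraries. These were chromosome 12, 54218801 to 54219503, with folds of 5.08 to 16.2, and chromosome 2, 176865932 to 176867500 and 177133672 to 177135101, with folds of 3.76 to 9.75 and 3.69 to 7.98. The remaining flanks had no region in all 6. The highest there by mean percentile over the libraries that called them were chromosome 12, 54529216 to 54529862, in 5 libraries, chromosome 7, 27005278 to 27005677, in 4, and chromosome 7, 27386629 to 27386950, and chromosome 17, 46533949 to 46534241, in 1 each.

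Peaks lay within 1 kb of 2 of the 8 interval ends. A region at chromosome 17, 46810298 to 46810799, called in 5 libraries with folds of 4.55 to 7.71, began 297 bp beyond the HOXB interval, while the last region inside it, 46793441 to 46793786, was called in 1 library with a fold of 4.94. With the intervals lengthened by 10 kb HOXB held 11 peaks, and HOXA was still higher by 3.93 per 100 kb (exact sign-flip adjusted p = 0.0375, n = 6). The first HOXA region, 27130777 to 27131336, began 776 bp inside and was called in 3 libraries, and the nearest region before it lay 124 kb outside.

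Peaks of the 6 libraries that shared at least 1 bp were merged into regions, which gave 29 HOX regions. Of these, 6 were called in all 6 libraries, 20.7%, against a background of 23.3% of 68127 regions genome-wide, so the share over the 4 clusters was near the background. All 6 lay in HOXA, where they were 42.9% of 14 regions. HOXB, HOXC and HOXD had 5 regions each and none called in all 6. A single library accounted for 12 of the 29, against 34.3% genome-wide. Chromosome 7 as a whole had 0.467 regions called in all 6 libraries per 100 kb, and HOXA had 3.75. Chromosome 17 had 1.27 per 100 kb, the most of these 4 chromosomes, and HOXB had 0.

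The 6 shared HOXA sites formed one row between 27161474 and 27190810. This stretch of 29.3 kb is 18.3% of the interval and lies on the HOXA2 side of its middle. Neighbouring summits were 2.12 to 8.40 kb apart. Each library had 6 or 7 peaks in it, of which at least 6 follow from choosing sites called in every library. Before the stretch there were 3, 3 and 0 peaks in the insulin libraries and 2, 0 and 0 in the untreated libraries. After it there were at most 2 per library, and no library had a peak in the last 48.2 kb, the side of HOXA13. The 8 other HOXA regions were called in 1 to 3 libraries, with no fold above 5.51.

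**Figure D2:**
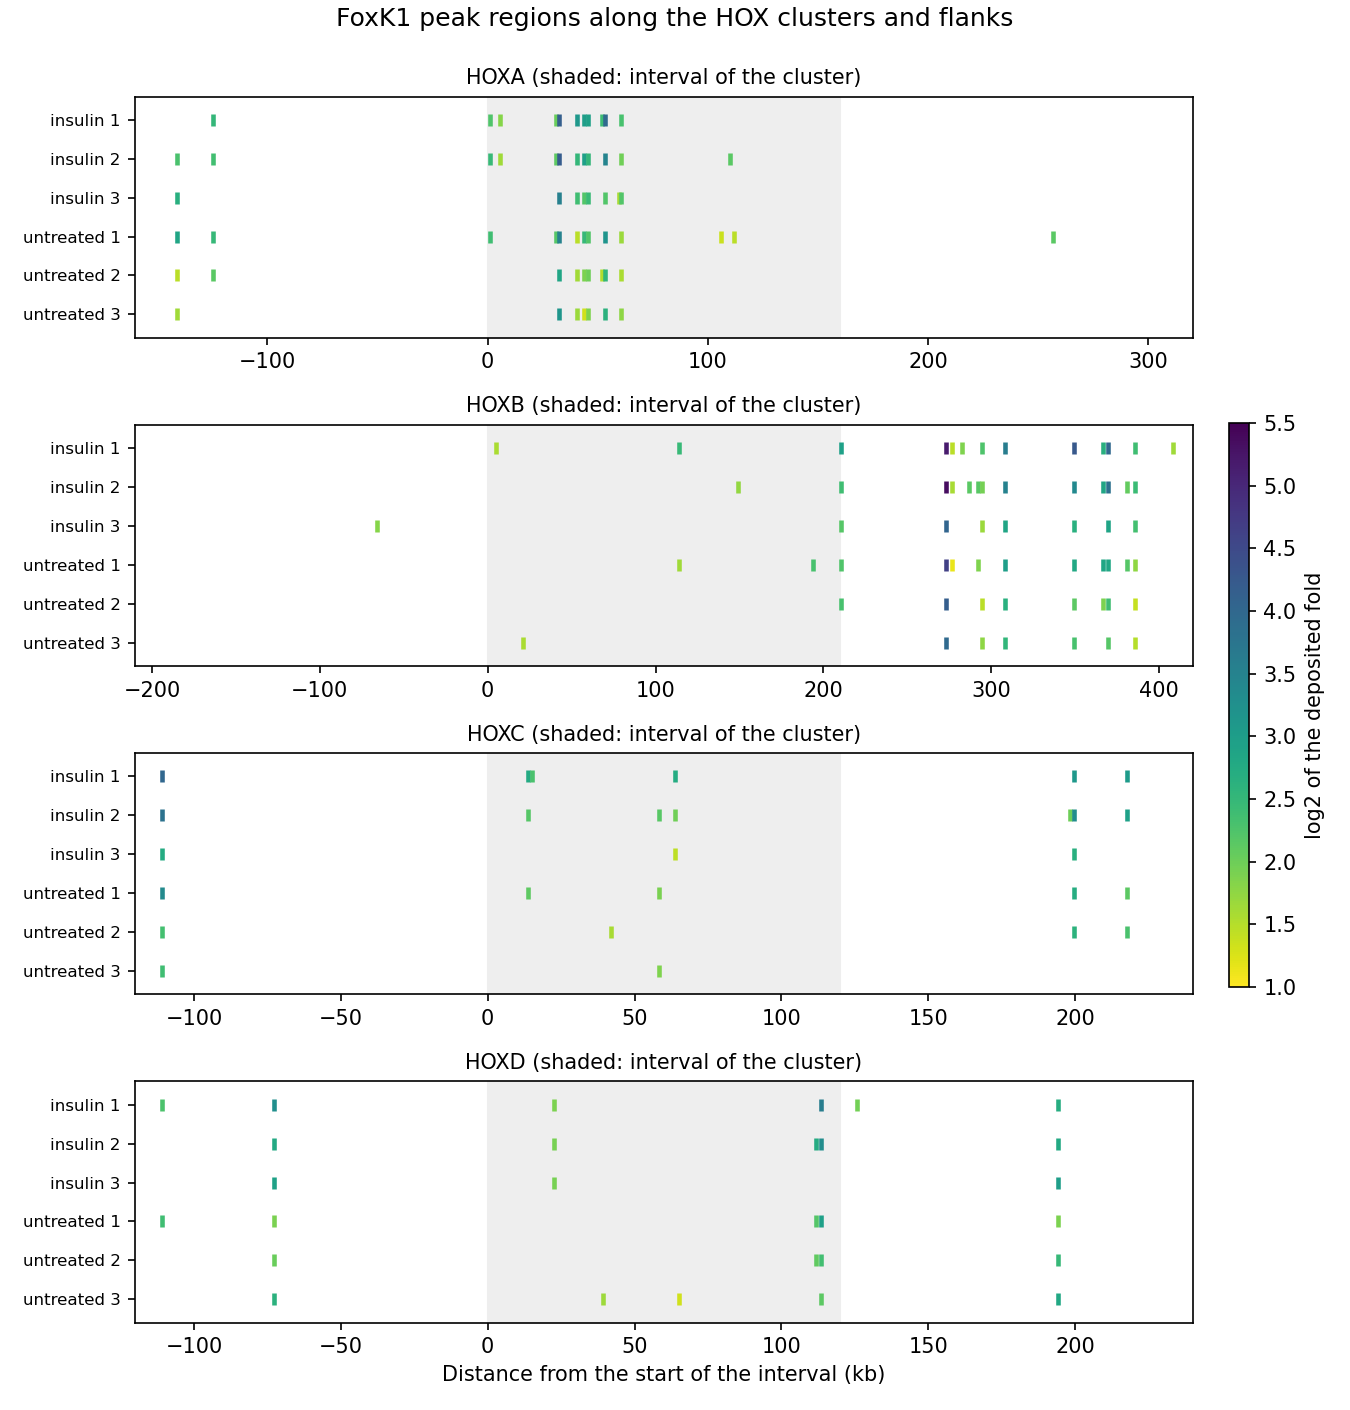
Peak regions along the 4 clusters (shaded) and their flanks, 1 row per library, with the distance from the start of the interval in kb on the horizontal axis and the log2 of the deposited fold as colour. The 6 HOXA sites called in every library lie between 32.2 and 60.6 kb, and the HOXB interval has a stretch of 92.8 kb with no peak in any library.

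The strongest of these sites was chromosome 7, 27161474 to 27162812, whose summit stood 32.2 kb into the interval. Its deposited fold was 17.8, 18.4 and 11.8 in insulin replicates 1, 2 and 3 and 11.5, 7.21 and 8.89 in the untreated ones. It stood between the 86.1 and 95.0 percentile of −log10 q of every list, and the summits of the 6 libraries lay within 104 bp. The second was 27182821 to 27183644, at 53.4 kb, with folds of 15.6, 11.1 and 4.65 after insulin and 9.06, 5.80 and 6.15 without it. Its summits agreed within 41 bp, the tightest of the 6. Insulin replicate 3 was its lowest library and insulin replicate 1 its highest, so the groups overlapped in rank. The third by mean percentile was 27175376 to 27176316, at 45.8 kb, with folds of 7.58, 5.77 and 5.47 after insulin and 4.68, 4.0 and 3.65 without it. All insulin values were above the untreated ones in fold, while the percentiles of the groups overlapped. The median fold of whole lists separated the groups in the same direction. It was 5.95, 5.58 and 4.78 in the insulin replicates and 4.65, 4.18 and 4.21 in the untreated ones. The part of this list-wide difference in the folds of single sites was not tested.

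The other three were weaker. They were 27169315 to 27170971, 27173349 to 27174138 and 27190147 to 27190810, with folds of 2.78 to 8.62, 2.5 to 7.98 and 2.97 to 4.94. The number of fragments at a summit was worked out from the deposited fold and p. It was 13 to 44 at 27169315, 11 to 53 at 27173349 and 14 to 35 at 27190147, against 38 to 155 at the strongest site. The median of each list was 27, 38 and 21 in the insulin replicates and 43, 35 and 22 in the untreated ones. The sites at 27169315 and 27173349 exceeded it in insulin replicates 1 and 2 and untreated replicate 1 only. The site at 27190147 stayed below it in every library. In insulin replicate 3 the sites at 43.6, 53.4 and 60.6 kb each had 16 fragments. Their background there, worked out in the same way, was also equal, at 2.66. They therefore had the same percentile in that library, 39.5. At this depth they cannot be ranked within that library.

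Ranked only among the 15887 regions called in all 6 libraries, the strongest HOXA site stood between the 73.3 and 85.8 percentile and the one at 53.4 kb between 15.9 and 65.1. The 4 remaining sites stood at or below 32.4 in every library. Most of the HOXA row was thus weaker than the typical site found in every library.

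The effect of insulin on these ranks was then examined. Over the 6 sites the mean within-list percentile was 70.2, 62.5 and 51.8 after insulin and 57.6, 47.3 and 37.4 without it, a difference of 14.1. The groups overlapped and the difference did not exceed their spread (two-sided exact permutation p = 0.2, where 3 against 3 cannot go below 0.1). With 1 library left out it lay between 9.07 (without untreated replicate 3) and 19.1 (without untreated replicate 1). The median difference was 14.9 over the 6 sites and 2.94 over all 15887 shared regions. Lists of unequal length do not give comparable ranks, and among the shared regions alone the HOXA difference was 5.04 (exact permutation p = 0.3, n = 3 each), with a median of 5.38 over the 6 sites and 0.134 over all. With a minimum −log10 q of 5, which left the sites at 32.2 and 53.4 kb, it was -1.45.

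The site at 40.6 kb (27169315 to 27170971) is singled out after its values were seen. Median folds of whole lists, given above, were higher in every insulin library than in every untreated one. At this site the folds were 8.62, 5.76 and 5.19 after insulin and 2.78, 3.07 and 3.19 without it. Its within-list percentile was 72.5, 55.0 and 48.8 after insulin and 25.0, 29.0 and 15.4 without it, so that every insulin library ranked above every untreated one (exact permutation p = 0.1, the smallest possible). The site at 60.6 kb did so as well, with a difference of 11.0. These 2 of 6 sites compare with a background of 8.65% of the shared regions higher in every insulin library and 0.85% lower. Among the shared regions alone only the site at 40.6 kb kept the separation, 1 of 6 against a background of 4.66%, with 4.31% in the opposite direction. The derived fragments at its summit did not separate the groups, with 44, 43 and 18 after insulin and 44, 32 and 13 without it. Its derived background was 4.22, 6.64 and 2.66 fragments after insulin and 15.2, 9.73 and 3.39 without it, higher in untreated replicates 1 and 2 than in any other library. The median background of whole lists was also highest in these, at 3.75, 6.04 and 3.23 after insulin and 8.49, 7.70 and 3.98 without it. In replicate 3 of both treatments the values 2.66 and 3.39 equal the lowest background of the list to 3 digits. The part of the background in this ranking was not tested.

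**Figure D3:**
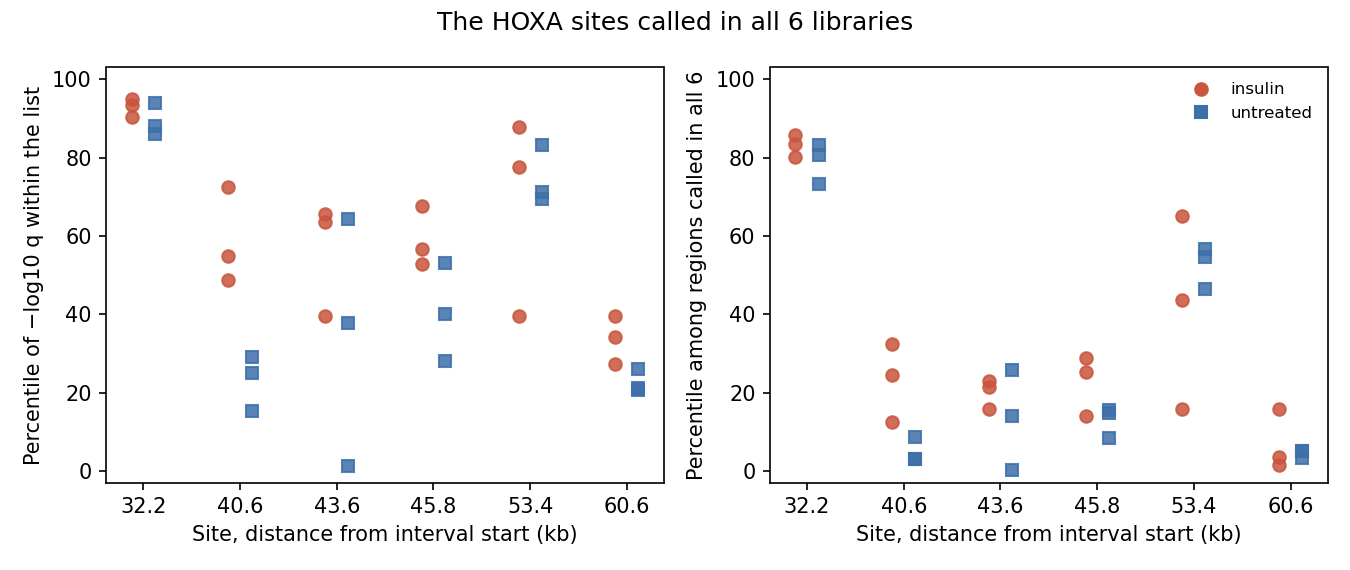
The 6 HOXA sites called in all libraries, ordered by distance from the interval start in kb, with the percentile of −log10 q within the whole list (left) and among regions called in all 6 libraries (right). Circles are insulin and squares untreated libraries, and only the site at 40.6 kb separates the groups in both panels.

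HOXD had one site close to full agreement. Chromosome 2, 177052645 to 177053753, on the HOXD1 side and 6.25 kb inside the interval, was called in 5 libraries. Its fold was 12.1 in insulin replicate 1, 9.89 in insulin replicate 2, and 7.81, 5.14 and 4.38 in the untreated libraries, with no call in insulin replicate 3. A weaker region beside it, 177051683 to 177052495, was called in 3 libraries with folds of 4.26 to 6.71. Shortening the interval by 10 kb removes both and leaves HOXD with 5 peaks in all. The rest of the HOXD interval held 3 regions, and 46.3 kb of it had no peak in any library.

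HOXC had 3 regions called in 3 libraries each and 2 in 1 library, with folds between 2.73 and 6.78. The highest was chromosome 12, 54343407 to 54343806, on the HOXC13 side, with a fold of 6.78 in insulin replicate 1, 4.57 in insulin replicate 2 and 4.31 in untreated replicate 1. The last 55.7 kb, toward the HOXC4 end of the gene order, had no peak in any library. HOXB had 1 region called in 2 libraries, 46713933 to 46714257, with folds of 5.56 in insulin replicate 1 and 3.13 in untreated replicate 1. Its other 4 regions were called in 1 library each, with folds of 2.96 to 4.94.

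Regions called in 3 of 3 insulin and 0 of 3 untreated libraries numbered 2 of the 29, against a background of 0.376% genome-wide. The reverse numbered 0, against 0.0352%. One was in HOXD at 176962168 to 176962619, with folds of 3.70, 3.8 and 3.77 and summits within 10 bp. The other was in HOXC at 54393668 to 54394348, with folds of 6.61, 3.93 and 2.73. Its summits were up to 425 bp apart, and joining peaks only by a summit distance of at most 100 bp removed it. Neither was counted with lists of equal length or with −log10 q of at least 5. The exact p of 1 such region is 0.1 at best, so neither can be called changed.

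Over the 4 clusters the insulin libraries had 17, 17 and 9 peaks and the untreated ones 17, 10 and 11. The means were 14.3 ± 4.62 and 12.7 ± 3.79 (SD, n = 3 each, two-sided exact permutation p = 1). The HOX share of a list was between 0.0316% and 0.0422%, while the lists held 26082 to 48208 peaks. HOXA differed by 1 peak and HOXC by 1, HOXB by 0 and HOXD by -0.333 (exact permutation adjusted p = 1 for each, Benjamini-Hochberg over 4). With 1 library left out, HOXA ranged from 0 (without untreated replicate 3) to 2.5 (without untreated replicate 1), HOXB from -0.5 to 0.5, HOXC from 0.667 to 1.67 and HOXD from -0.833 to 0.167. Each library moved the total by more than 1.5 times when left out. Omitting insulin replicate 1, insulin replicate 2 or untreated replicate 2 gave 0.333, and omitting untreated replicate 3 gave 0.833. Omitting untreated replicate 1 gave 3.83, and omitting insulin replicate 3 gave 4.33. With lists of equal length it was -0.333.

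Strength within a list also set the clusters and flanks side by side. The medians rest on few peaks. HOXC and HOXD held at most 3 per library, HOXB at most 2 and the HOXA flanks 1 to 3. HOXC had a single peak in insulin replicate 3 and in untreated replicates 2 and 3. The median HOXC peak stood below the median peak of its flanks in percentile of −log10 q, with a difference of -45.2 ± 15.4 (SD, n = 6), lower in 6 of 6 libraries (exact sign-flip p = 0.031, adjusted p = 0.125 over 4 clusters). HOXD differed by -26.9 ± 28.8, lower in 5 of 6 libraries (exact sign-flip adjusted p = 0.167). HOXB differed by -40.9 ± 20.5, lower in each of the 4 libraries with peaks in both (exact sign-flip adjusted p = 0.167). HOXA peaks were 6.74 ± 17.1 above (exact sign-flip adjusted p = 0.375). Leaving out insulin replicate 2 gave 3.34 for HOXA, untreated replicate 2 gave 3.95 and insulin replicate 3 gave 12.7. The HOXD value was -47.3 with intervals shortened by 10 kb and -10.6 without replicate 3 of both treatments. The derived background at HOXA peaks was 0.822 to 0.962 times the median of each list, and at HOXA flank peaks 0.289 to 0.953 times. It was 0.745 to 1.13 times at HOXB peaks and 1.52 to 1.82 times at HOXB flank peaks, 0.434 to 0.930 times at HOXC peaks and 0.585 to 1.34 times at HOXC flank peaks. At HOXD peaks it was 0.806 to 1.41 times and at HOXD flank peaks 1.17 to 2.56 times. The part of these backgrounds in the differences was not tested.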

How the data were processed

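FoxK1 ChIP-seq peak lists of 6 libraries were used. Per the submitters' processing notes, the authors used fastp, Bowtie2, SAMtools and MACS2 on build hg19. Their versions, the control library and the calling threshold are not stated in those notes. Each deposited list names its peaks after one library, so peaks were called per library. The deposited fold is a linear ratio over the background, and the −log10 p and −log10 q, also deposited, grow with depth. The deposited score, 10 times the −log10 p, was not tested. Read totals are unknown, so the derived fragments are the measure of depth given.

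Fragments and background at a summit were derived from the fold, taken as (fragments + 1) over (background + 1), and the p, taken as a Poisson upper tail, and were found for 100% of peaks. Summit positions decided membership, and coordinates of regions are 1-based. A region takes the strongest peak of a library. Tests were exact permutations of 20 assignments or exact sign flips. The region and fragment steps were tested on simulated data. The intervals, genes and lists were chosen with earlier results of these data known. Named regions were the 3 shared ones per cluster with the highest mean percentile, regions in 3 of 3 against 0 of 3, and the strongest of each flank. Promoter peaks, motifs at summits and lists of HOX cofactors, Polycomb, trithorax and insulator genes need an hg19 annotation or genome and were not computed. Python 3.11.15, numpy 2.4.6, pandas 2.3.3, scipy 1.17.1 and matplotlib 3.10.9 were used.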

Additional observations from a re-analysis of the deposited data

How the results depend on the processing

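With 5 libraries the sign-flip test cannot go below 0.0625 and with 4 not below 0.125, so leaving libraries out ends every call between clusters by construction, while the signs held. Leaving out each library gave 4.62 to 5.15 for HOXA minus HOXB, 3.50 to 3.96 for HOXA minus HOXC, 3.17 to 3.96 for HOXA minus HOXD, -1.19 to -0.857 for HOXB minus HOXC and -1.45 to -1.19 for HOXB minus HOXD, all in peaks per 100 kb. Without replicate 3 in both treatments these were 5.34, 4.06, 4.06, -1.28 and -1.28. With −log10 q of at least 5 they were 3.85, 3.06, 2.78, -0.794 and -1.07 (exact adjusted p of 0.0625 to 0.3). For the HOXA pairs the exact sign-flip p before adjustment stayed at 0.031 there, as in the main setting. HOXB minus HOXC was -0.119 with lists of equal length. With intervals shortened by 10 kb HOXB minus HOXD was -0.395, and HOXC minus HOXD turned to 1. For the last and for the reversals below, the cause was not tested.

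Against flanks, HOXC turned to -0.694 with equal lengths, to -0.417 with flanks 2 times as long and to -0.357 with intervals lengthened by 10 kb, and HOXD turned to -0.208 with intervals shortened. Flanks 2 times as long gave 4.82 for HOXA, -2.62 for HOXB and 0.833 for HOXD, each now past the threshold (exact sign-flip adjusted p = 0.0417).

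The insulin-minus-untreated number of HOX peaks turned to -0.333 with equal lengths. In HOXD, where it was -0.333, it turned to 0.333 with shortened intervals, to 0.5 without replicate 3 in both treatments, and lay between -0.833 and 0.167 with each library left out (above 0 only without insulin replicate 3). With the replicate block the difference stayed 1.67 over all clusters (exact sign-flip p = 1) and 14.1 for the shared HOXA percentile (p = 0.25, the smallest possible with 3 pairs), and the block changed no call. Same-numbered libraries correlated at 0.101, 0.0606 and 0.266 in their deviations from the group means, and differently numbered ones at -0.210 to 0.122. These values do not settle whether the numbers mark pairs, and the main tests did not take them as pairs. The percentile difference turned to -1.45 with −log10 q of at least 5.

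Regions called in all 6 libraries numbered 2 with −log10 q of at least 5 and 4 with equal lengths, where the sites at 40.6 and 60.6 kb were lost. Insulin-only regions numbered 0 under both of these settings and 1 with summits within 100 bp. With each library left out they numbered 2 to 3. Strength against flanks kept its sign and its side of the threshold in all settings that gave a value. With each library left out it was 3.34 to 12.7 for HOXA, -47.3 to -31.3 for HOXB, -49.6 to -40.8 for HOXC and -33.9 to -18.9 for HOXD. With equal lengths HOXB and HOXC had too few libraries for it. Percentiles among shared regions and lengthened intervals were chosen after seeing the data.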
